A study of Aspergillus nidulans with 8 samples.

Results

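The comparison concerned mycelium of Aspergillus nidulans, a filamentous fungus, after a short exposure to cadmium, and set the array labelled as the reference strain against the array labelled as the delta-atfA mutant. It used 2 of the 8 arrays of the series, the ones labelled CdCl2, with 1 single-colour (Cy3) Agilent array for each strain label. Per the labels, the reference strain carried pyrG89, AfupyrG+; pyroA+; veA+, and the mutant pyrG89, AfupyrG+; pyroA4; DatfA::pyroA; veA+. Both therefore shared a pyrG mutation complemented by the gene of Aspergillus fumigatus and a wild-type veA allele, and the mutant carried its working pyroA copy at the atfA locus. Conidia of either strain were grown submerged in minimal broth at 37 °C, and CdCl2 was added to 16 h cultures at 0.2 mM for 0.5 h. RNA from 3 cultures was pooled for each array, so the spread between cultures was not measured and every value here is an effect size with no test. The untreated, amphotericin B and Congo Red arrays, also 1 for each strain label, serve as context.

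AtfA is a bZIP transcription factor of the ATF/CREB family and a partner of the stress-activated MAP kinase SakA, the counterparts of Atf1 and Sty1 in fission yeast. In A. nidulans it is known for its roles in tolerance of oxidative stress and in the stress resistance of conidia. Cadmium is a non-essential metal that binds thiols, depletes glutathione, displaces zinc from proteins and disturbs protein folding, and cells answer it with glutathione metabolism, antioxidant enzymes and chaperones.

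Levels are log2 processed signals of a probe relative to the 75th percentile of its own array, averaged over its 4 spots, so 0 means a signal equal to that percentile. They are compared between arrays for the same probe or the same set of probes, and never between genes. Differences are labelled reference minus labelled deletion on the log2 scale, so a positive value means a higher level on the array labelled reference. An SE beside a difference is taken over spots and covers the scanner and the slide only.

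The signal of atfA (AN2911) ran against the strain labels. Its processed signal was 3.09 on the CdCl2 array labelled reference, not well above background, and 9708 on the CdCl2 array labelled deletion, a level at least 409-fold lower on the array labelled reference. All 4 arrays labelled reference lay between 2.30 and 3.09, and all 4 labelled deletion lay between 3271 and 9708, so the labels of the scanner arrays and the atfA probe disagreed for every condition. In the authors' deposited value table the order was the reverse, with a log2 value of 13.71 for atfA in the CdCl2 column labelled reference and 6.26 in the one labelled deletion. Over all genes, each column of that table correlated best with a scanner array of the opposite strain label (r = 0.971 to 0.990). With the scanner array of its own label each column correlated at 0.910 to 0.952. The arrays are named by their labels below, and every direction is tied to the presence of atfA signal: the array labelled reference is the one without it. The level of pyroA, a gene of vitamin B6 synthesis that is the marker of the deletion, was 3.67 on the CdCl2 array labelled reference and 1.86 on the one labelled deletion, a difference of 1.81, and it was also the higher of each pair in the other conditions. The level of pyrG, which both strains carry in complemented form, was 3.07 and 2.73. The plot of these 3 genes on all 8 arrays shows the reversal of atfA in each condition.

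**Figure D1:**
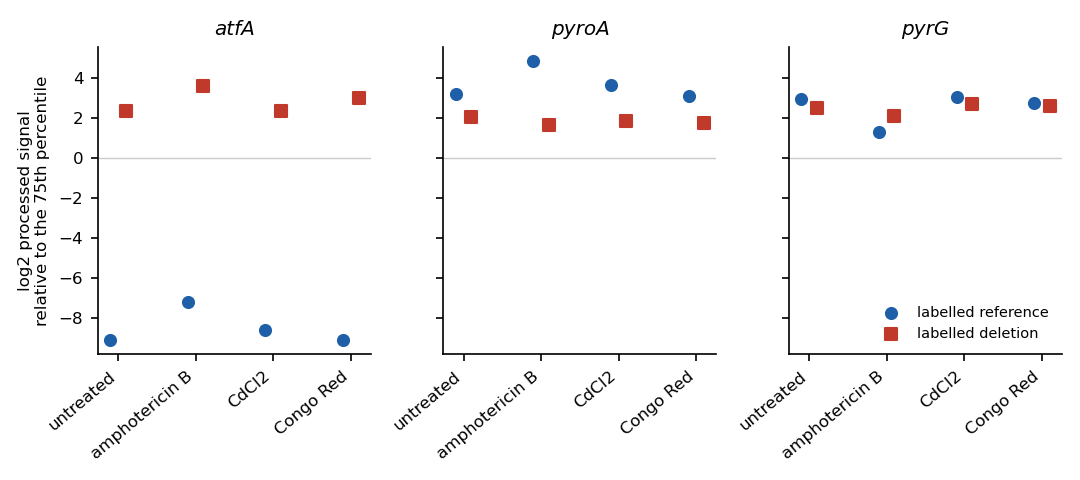
Levels of atfA, pyroA and pyrG (log2 processed signal relative to the 75th percentile of the array) on the 8 arrays, by condition on the horizontal axis, with circles for arrays labelled reference and squares for arrays labelled deletion. The level of atfA was -8.58 on the CdCl2 array labelled reference and 2.37 on the one labelled deletion, while pyroA was 3.67 and 1.86 and pyrG 3.07 and 2.73.

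The treatment label of the array labelled deletion was also in doubt. In the value table, the CdCl2 column labelled reference correlated best over genes with the untreated scanner array labelled deletion (r = 0.974, against 0.966 with the CdCl2 array labelled deletion), and the untreated column labelled reference with the CdCl2 scanner array labelled deletion (0.971 against 0.969). The difference between these table columns (CdCl2 minus untreated) correlated at -0.797 over 10550 genes with the same difference between the 2 scanner arrays labelled deletion. For the table columns labelled deletion against the scanner arrays labelled reference, the corresponding value was 0.878. Many of the counts, list medians and gene values below are therefore also given with the untreated array labelled deletion in place of the CdCl2 array labelled deletion, called the exchanged comparison, which has the CdCl2 array labelled reference in common with the cadmium pair. The CdCl2 array labelled reference lay on slide 2 and the one labelled deletion on slide 1, and the untreated and amphotericin B pairs lay the same way, so within these pairs slide and strain label cannot be told apart. The Congo Red pair lay the opposite way, with its array labelled reference on slide 1, and its values are set beside the cadmium ones.

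Of 10550 probes, each for 1 transcript, 7769 were well above background on both CdCl2 arrays, 76 on the array labelled reference alone, 598 on the array labelled deletion alone and 2107 on neither. Processed signals had a 75th percentile of 1182 on the array labelled reference and 1876 on the array labelled deletion, and 7845 and 8367 probes were well above background. Among the 8443 genes above background on at least 1 of the 2 arrays, 732 (8.67%) were at least 2-fold higher on the array labelled reference and 887 (10.5%) at least 2-fold lower. Where a gene was above background on 1 array only, its difference is a lower bound, and with such genes at their bound 730 (8.65%) were higher and 712 (8.43%) lower. Among genes above background on both arrays, 140 passed 4-fold toward the array labelled reference and 173 toward the other, and 14 and 26 passed 16-fold. The median difference of all genes was 0.03. In the exchanged comparison 714 (8.64%) of 8264 genes were higher and 1058 (12.8%) lower by this measure.

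**Figure D2:**
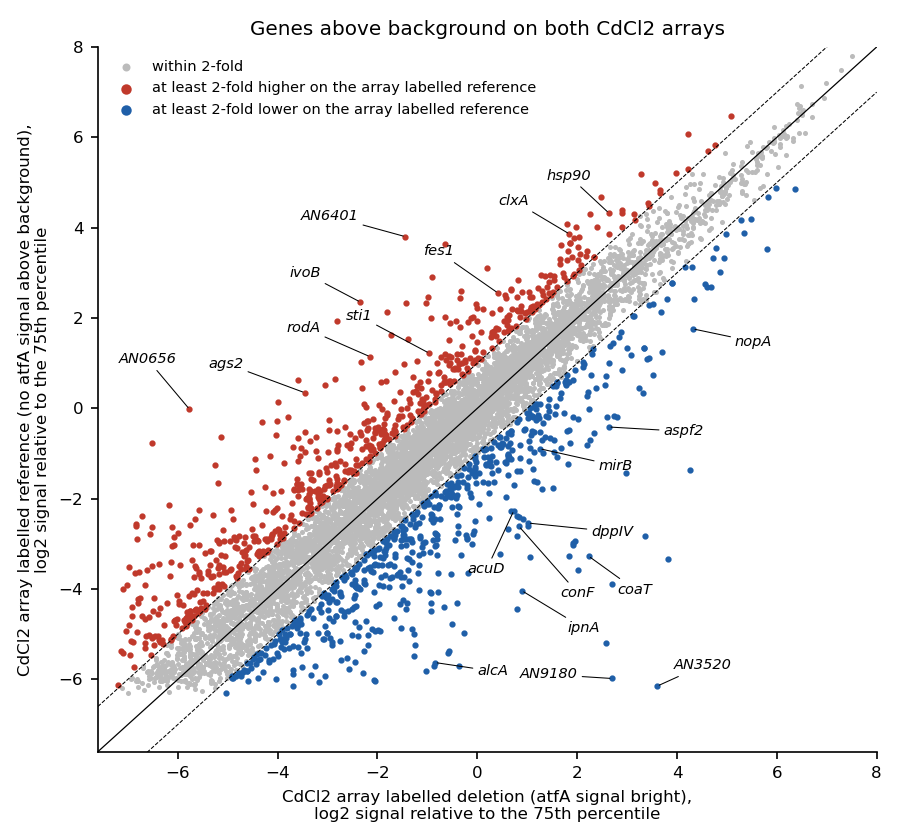
Level of each gene above background on both CdCl2 arrays, with the array labelled deletion on the horizontal axis and the array labelled reference on the vertical axis (log2 signal relative to the 75th percentile of each array). Dashed lines mark a 2-fold difference, and the labelled genes lie outside them, among them AN3520 at -9.75 and AN0656 at 5.75.

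By measured differences, the lower genes were shared with the untreated and Congo Red pairs in a larger proportion than the higher ones, and with the amphotericin B pair in a smaller one. Among genes above background on both CdCl2 arrays, 654 were higher and 597 lower, against 732 and 887 with dim genes included. Dim genes thus made up more of the lower list. Sharing by direction was not counted without them, so their part in this contrast was not tested. Of the 887 lower genes, 643 (72.5%) were also at least 2-fold lower in the untreated pair, where 912 (11%) of 8318 genes were lower, and 362 (40.8%) in the Congo Red pair, where 494 (5.87%) of 8419 genes were lower. These shared genes were 70.5% and 73.3% of the other pairs' own lists. Of the 732 higher genes, 262 (35.8%) were shared with the 440 (5.29%) of the untreated pair and 243 (33.2%) with the 544 (6.46%) of the Congo Red pair, which is 59.5% and 44.7% of those lists. In the amphotericin B pair, 1598 (19.7%) of 8101 genes were higher and 1211 (14.9%) lower, and they held 362 (49.5%) of the higher and 379 (42.7%) of the lower cadmium genes, which is 22.7% and 31.3% of the amphotericin B lists. Altogether 120 of the higher genes (16.4%) and 194 of the lower ones (21.9%) passed 2-fold the same way in all 3 other pairs, and 245 (33.5%) and 179 (20.2%) in none of them. The opposite way, 20 of the higher and 3 of the lower genes passed 2-fold in the untreated pair, 48 and 87 in the amphotericin B pair, and 13 and 12 in the Congo Red pair.

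Several cytosolic chaperones, hsp90 and hsp70 among them, stood higher on the array labelled reference. The level of hsp90, a chaperone of kinases and other signalling proteins, was 4.32 on the CdCl2 array labelled reference and 2.64 on the CdCl2 array labelled deletion. On the remaining arrays it was 2.39 untreated, 2.50 under amphotericin B and 2.11 under Congo Red for the labelled reference, and 2.48, 3.56 and 2.35 for the labelled deletion. The CdCl2 array labelled reference was thus the highest of the 8, and the 2 arrays labelled deletion whose treatment labels are in doubt were close to each other. The cadmium difference was 1.69 (SE 0.06), or 3.23-fold, against -0.10 in the untreated pair, -1.07 in the amphotericin B pair and -0.24 in the Congo Red pair, and it was 1.84 in the exchanged comparison.

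The co-chaperones sti1 and fes1 had the largest differences among the chaperones. The level of sti1, which links Hsp70 to Hsp90, was 1.22 on the CdCl2 array labelled reference and -0.96 on its partner, and lay between -0.73 and 0.70 on the other 6 arrays. Its difference was 2.19 (SE 0.07), or 4.56-fold, with 1.48 in the exchanged comparison and -0.12, -0.22 and 0.15 in the untreated, amphotericin B and Congo Red pairs. The level of fes1, a nucleotide exchange factor of Hsp70 in yeast, was 2.56 and 0.41 on the CdCl2 arrays, a difference of 2.14 (SE 0.04) or 4.42-fold. Unlike hsp90 and sti1, fes1 was higher still on both amphotericin B arrays, at 3.83 and 3.52. The exchanged comparison gave 1.64 for fes1, and the untreated and Congo Red pairs gave -0.77 and 0.45. Another co-chaperone of Hsp70, ydj1, was at 0.20 (0.08 exchanged).

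The remaining chaperones lay on both sides of 0. The cytosolic hsp70 differed by 1.43, hsp88, an Hsp110 of filamentous fungi, by 1.41 and the mitochondrial chaperonin hsp60 by 1.02, and in the exchanged comparison by 1.15, 1.20 and 1.29. In the untreated and Congo Red pairs these 3 genes lay between -0.39 and 0.25. The disaggregase hsp104 was lower, at -0.61, and the small heat shock protein hsp30 was at -1.15, with -1.92 in the untreated pair and -0.78 in the Congo Red pair. Of the 8 members of the heat shock list, 4 were at least 2-fold higher and 1 lower, with a median of 0.67. Of the 7 chaperones listed by symbol, 4 of them in both lists, 6 were higher and none lower, with a median of 1.43. These counts stand beside 8.67% higher and 10.5% lower among all genes tested. The second list had medians of -0.12, -0.50 and -0.04 in the untreated, amphotericin B and Congo Red pairs and 1.29 in the exchanged comparison. The CdCl2 array labelled reference was the highest of the 8 arrays for 4 of the 7. That share was 13.5% among all genes tested and 33.9% among the genes at least 2-fold higher.

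Between the CdCl2 and the untreated array of the same strain label, hsp90 differed by 1.94 for the labelled reference and by 0.15 for the labelled deletion, hsp70 by 1.44 and -0.28, sti1 by 1.6 and -0.71, and fes1 by 2.42 and -0.50. An exchange of the 2 labels in doubt would turn the sign of the second value of each pair and leave its size. The median over the 7 chaperones was 1.57 for the labelled reference and -0.21 for the labelled deletion. No set of replicates was available to test these differences of differences.

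The folding factors bipA, clxA and pdiA of the endoplasmic reticulum were higher too, and they were also above 0 in the untreated pair. The level of bipA, the Hsp70 of the endoplasmic reticulum, was 3.80 and 2.04 on the CdCl2 arrays and 2.50 and 1.12 on the untreated ones, labelled reference first. Its differences were 1.76 (SE 0.05) under cadmium, 1.38 untreated, 1.04 under amphotericin B and -0.74 under Congo Red, so the Congo Red pair, on the opposite slides, had the opposite sign. The calnexin clxA, a lectin chaperone for glycoproteins, differed by 2.02 (SE 0.04) under cadmium, 1.07 untreated, -1.59 under amphotericin B and -0.40 under Congo Red. The disulfide isomerase pdiA differed by 1.06, 1.03, -1.13 and -0.42 in the same order. Exchanging the array gave 2.68, 2.34 and 1.80 for bipA, clxA and pdiA, and with the exchange their untreated differences were 0.47, 0.74 and 0.29. The sensor ireA and its target hacA, the switch of the unfolded protein response, differed by -0.04 and 0.36. In all, 3 of the 5 genes were at least 2-fold higher, beside 8.67% of all genes tested. For 3 of the 5 the CdCl2 array labelled reference was the highest of the 8. This held for 13.5% of all genes tested and 33.9% of the genes at least 2-fold higher.

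The proteasome subunits differed by little but in the same direction. All 15 subunits listed lay above 0, between 0.20 for pup3 and 0.70 for pre8, with a median of 0.52, and none passed 2-fold. Of all genes tested, 52.2% lay above 0, and the median was 0.03. Their medians were 0.04, -0.21 and 0.06 in the untreated, amphotericin B and Congo Red pairs, and 0.33 in the exchanged comparison, where again all 15 lay above 0. For 12 of the 15 the CdCl2 array labelled reference was the highest of the 8 arrays, against 13.5% of all genes tested. The level of pre8, a subunit of the core particle, was 3.53 on that array, 2.83 on its partner and at most 3.03 on the other 6. The ATPase cdc48, which extracts ubiquitinated proteins for the proteasome and was added after its value was seen, had a level of 2.11 against 0.29, a difference of 1.82 (SE 0.05), with 1.38 in the exchanged comparison and 0.25, 0.10 and 0.11 in the untreated, amphotericin B and Congo Red pairs. Its level of 2.05 on the amphotericin B array labelled reference was nearly as high.

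**Figure D3:**
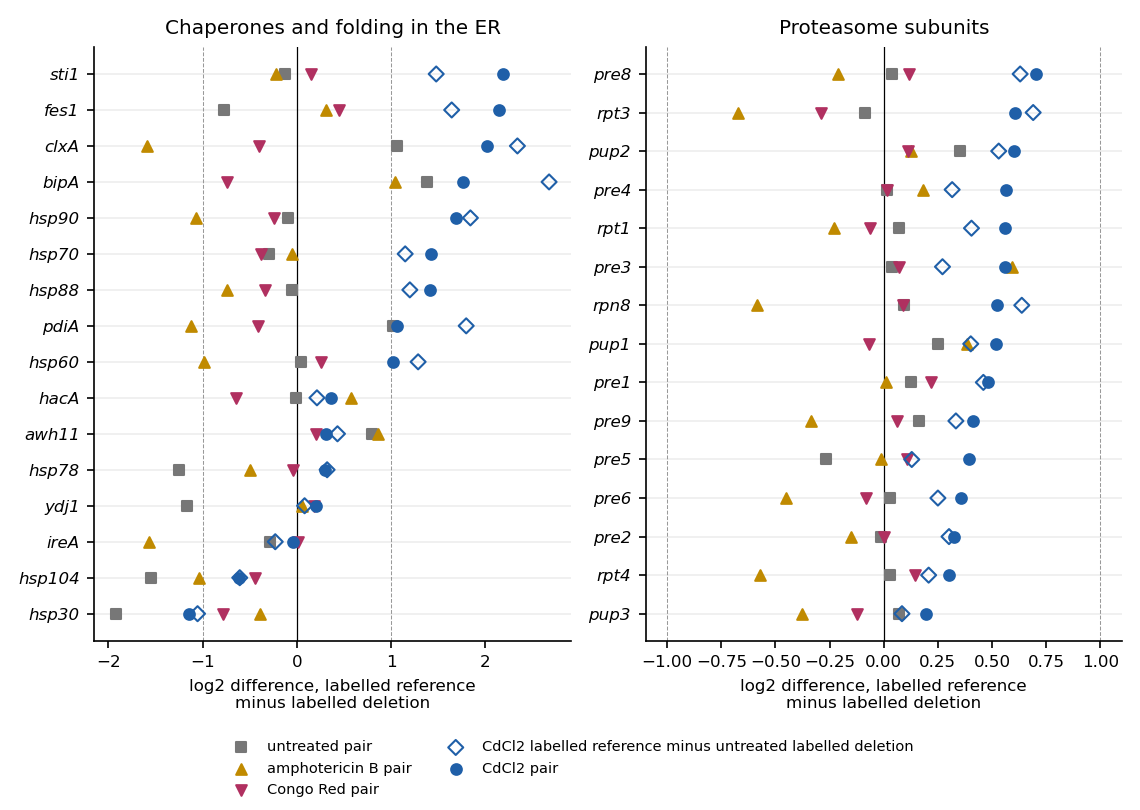
Differences (log2, labelled reference minus labelled deletion, horizontal axis) of the chaperones and endoplasmic reticulum folding genes on the left and of 15 proteasome subunits on the right, for the 4 pairs of arrays and the exchanged comparison (open diamonds). The cadmium values (filled circles) of hsp90, sti1 and fes1 were 1.69, 2.19 and 2.14 while their untreated values were -0.10, -0.12 and -0.77, and all proteasome circles lay between 0.20 and 0.70; dashed lines mark 2-fold.

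Of 8 genes of trehalose and polyol metabolism, which supplies compatible solutes, 3 were at least 2-fold higher, beside 8.67% of all genes tested. The trehalose phosphate synthase tpsA had levels of 2.61 and 0.68 on the CdCl2 arrays and between 0.76 and 2.40 on the other 6. Its difference was 1.93 (SE 0.04), or 3.81-fold, with 1.85 in the exchanged comparison and 0.64, -1.24 and -0.10 in the untreated, amphotericin B and Congo Red pairs. The glycerol phosphate dehydrogenase gfdA differed by 1.28 and its paralogue gfdB by 0.96, with 1.17 and 1.53 in the exchanged comparison. In the untreated, amphotericin B and Congo Red pairs gfdA was at 0.48, -0.48 and 0.41, and gfdB at 1.35, 0.16 and 1.53. The neutral trehalase treB differed by 1.02, but by 0.57 in the exchanged comparison. The mannitol enzyme mpdA was at -0.31 and the glycerol dehydrogenase gldB at -0.68. The list median was 0.71 with all genes at 0.03.

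Antioxidant and glutathione genes did not share a direction. The catalase cat1 (AN9339) had levels of -0.98 and 1.31 on the CdCl2 arrays, a difference of -2.29 (SE 0.04), with -2.83, -1.89 and -1.10 in the untreated, amphotericin B and Congo Red pairs and -3.09 in the exchanged comparison. It was the lower of each pair in all 4 conditions. The glutathione S-transferase gstB was at -1.07, while its relative gstA was at 1.25 (0.95 exchanged) and the catalase listed as fgaCat at 1.05. The catalase-peroxidase cpeA measured -1.40, but it was above background on the array labelled deletion alone so no fold is given. The glutathione reductase glr1 lay at 1.00, just inside 2-fold, and the first enzyme of glutathione synthesis, gcsA, at 0.06. Superoxide dismutases, thioredoxin reductase, thioredoxin and peroxiredoxin lay between -0.38 and 0.41. Of 13 genes tested 2 were higher and 3 lower, or 2 with cpeA at its bound, beside 8.67% and 10.5% of all genes, and the median was 0.10.

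The signalling genes upstream of AtfA and the other stress regulators differed little. Of 8 genes of the SakA pathway that were tested, 1 passed 2-fold, the histidine kinase tcsB at -1.37 (-1.45 exchanged), which was also at -1.41, -1.12 and -0.99 in the untreated, amphotericin B and Congo Red pairs. The kinase sakA itself was at 0.53, pbs2, which phosphorylates it, at 0.24 and the response regulators sskA and skn7 at 0.07 and -0.27. None of the 14 stress regulators passed 2-fold. The largest was jlbA, a bZIP factor of amino acid starvation, at 0.88, followed by sreA, the repressor of iron uptake, at 0.64. The oxidative stress factor listed as yap1 was at 0.38, the heat shock factor hsfA at 0.15 and the sulfur regulator metR at -0.02. No gene of 6 for sulfur assimilation, which supplies cysteine for glutathione, passed 2-fold, and their median was 0.14. The largest, cysD, had a level of 3.03 and 2.69 on the CdCl2 arrays and at most 1.85 on the other 6, so it was high on both arrays labelled CdCl2. The exchanged comparison therefore gave 1.20 for cysD against 0.34.

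The siderophore genes, which make and import iron chelators, were lower on the array labelled reference. All 12 lay below 0, as did 47.8% of all genes tested, and 4 were at least 2-fold lower, beside 10.5% of all genes. The median was -0.79. The acetyltransferase sidG had levels of -2.82 on the CdCl2 array labelled reference and 0.80 on the one labelled deletion. On the untreated, amphotericin B and Congo Red arrays it was at -0.77, 0.58 and -2.01 for the labelled reference and 1.87, 2.65 and -0.22 for the labelled deletion. Its difference was -3.62 (SE 0.04), a 12.3-fold lower level, -4.70 in the exchanged comparison, and -2.64, -2.07 and -1.79 in those 3 pairs. The transporter mirB, the neighbour of sidG in number (AN8540 and AN8539), differed by -2.15, and the synthetases sidC and sidD by -1.52 and -1.35. The first step, the ornithine monooxygenase sidA, was at -0.70. The exchanged comparison gave a median of -1.40 with 9 of 12 at least 2-fold lower, beside 12.8% of all genes. The untreated and amphotericin B pairs had medians of -0.62 and -1.01, with 0 and 2 of 12 above 0. The Congo Red pair had a median of 0.23 with 8 of 12 above 0. The iron regulators sreA and hapX were at 0.64 and -0.49.

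Of 6 listed genes of metal and calcium transport, 1 was at least 2-fold higher and none lower, beside 8.67% and 10.5% of all genes. Their median was -0.42. Lower values came from 3 genes outside that list, aspf2, zrfC and pmcC, which are named because they were among the lowest genes with a symbol. The zinc-binding protein listed as aspf2 (AN1832) had levels of -0.41 and 2.64 on the CdCl2 arrays and between 0.14 and 2.22 on the other 6, so the array labelled reference was the lowest of the 8. Its difference was -3.05 (SE 0.03), or 8.28-fold lower, with -2.63 in the exchanged comparison, -1.39 and -1.27 in the untreated and amphotericin B pairs and -0.16 in the Congo Red pair. The adjacent zinc transporter zrfC (AN1833) followed it at -2.04 (SE 0.11), with -2.49 exchanged. It was at -0.98 in the untreated and -0.25 in the Congo Red pair, and in the amphotericin B pair, above background on the array labelled deletion alone, at least 1.45-fold lower. In A. fumigatus the genes of these names share a promoter and serve zinc uptake at neutral pH. Of the listed genes, the zinc transporter zrfA was at 1.18 (1.06 exchanged), with 0.22 untreated, -1.18 under amphotericin B and 0.97 under Congo Red. The calcium pump pmcC was at -2.03 (-2.35 exchanged), with -2.46, -1.63 and -0.98 in the untreated, amphotericin B and Congo Red pairs. Under cadmium pmcA, pmcB and the Golgi pump pmr1 were at -0.54, -0.52 and 0.52. The metal pump crpA was at -0.81, within 2-fold.

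Ethanol and acetate use included some of the lowest genes. The alcohol dehydrogenase alcA had levels of -5.63 and -0.84 on the CdCl2 arrays, a difference of -4.79 (SE 0.05), and its activator alcR was at -3.11 (SE 0.06). The exchanged comparison gave -5.06 and -2.59, and the untreated pair -4.65 and -2.26. In the Congo Red pair both were also lower, at -2.73 and -1.69, but in the amphotericin B pair they were at 0.14 and 0.25. The glyoxylate cycle genes acuD, for isocitrate lyase, and acuE, for malate synthase, were at -3.0 and -2.11 (-2.38 and -2.72 exchanged). In the untreated pair acuD and acuE were at -2.87 and -2.37, and in the Congo Red pair at -1.28 and -0.67. In the amphotericin B pair acuD was at 4.12 and acuE at -2.04. The aldehyde dehydrogenase aldA, the gluconeogenic acuF and the acetate regulator facB lay at -0.01, 0.01 and -0.23. With the alcohol genes lay their chromosomal neighbours: 6 adjacent genes from AN8982 to AN8977, alcA and alcR among them, were all at least 2-fold lower, between -4.79 and -1.05, though AN8977 was at -0.79 in the exchanged comparison. The CoA transferase coaT had the lowest value among genes with a symbol in the RefSeq table and a signal above background on both arrays, with levels of -3.27 and 2.23 and a difference of -5.50 (SE 0.04), or 45.3-fold, and -5.63, -1.55 and -4.61 in the untreated, amphotericin B and Congo Red pairs. For coaT the exchanged comparison gave -4.97.

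The penicillin genes were lower in every pair. The level of ipnA, for isopenicillin N synthase, was -4.04 on the CdCl2 array labelled reference and 0.90 on the one labelled deletion, and all 4 arrays labelled reference (-5.15 to -1.99) lay below all 4 labelled deletion (-1.05 to 0.90). Its cadmium difference was -4.93 (SE 0.06), a 30.6-fold lower level. The acyltransferase aatA was at -3.35, and acvA, the tripeptide synthetase, was at least 17.6-fold lower, since it was below background on the array labelled reference. In the exchanged comparison ipnA and aatA were at -4.52 and -2.86 and acvA was at least 16.4-fold lower. In the Congo Red pair ipnA and aatA were at -4.10 and -1.90, and acvA was at least 7.6-fold lower.

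Other secondary metabolism clusters went in both directions. Of the orsellinic acid genes, orsA, the polyketide synthase, was at 2.41, and orsB, orsC and orsE at 2.69, 2.50 and 2.13, while orsD was at 0.17. The exchanged comparison gave 2.60, 3.13, 2.48 and 2.01 for these 4 higher genes. In the other 3 pairs they measured between 1.25 and 4.50, with orsA and orsC below background on the amphotericin B array labelled deletion and there at least 4.41-fold and 3.84-fold higher. Of the sterigmatocystin cluster, 10 of 17 genes were above background on at least 1 array. Of these 10, 8 measured at least 2-fold lower, beside 10.5% of all genes tested. Among them was the cytochrome P450 stcB at -2.91 (-3.37 exchanged), with -2.95, -1.32 and -2.29 in the untreated, amphotericin B and Congo Red pairs. With bounds applied to the dim genes, 4 of the 10 remained past 2-fold, beside 8.43% of all genes. The measured median of the 10 was -1.25, with -1.75, -0.98 and -0.97 in the untreated, amphotericin B and Congo Red pairs. Of the dba cluster, which makes azaphilone-type polyketides, 3 of 9 genes were above background on at least 1 CdCl2 array. The regulator dbaA, above background on both, was at -3.16 (-2.53 exchanged). Above background on the array labelled reference alone, dbaG was at least 9.97-fold higher (6.18-fold exchanged). For dbaD, above background on the array labelled deletion alone, no fold is given. In the untreated, amphotericin B and Congo Red pairs dbaA was at -3.10, -4.13 and -2.95. In the same pairs dbaG was at least 12.7-fold higher, at least 1.18-fold higher and at 4.10.

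**Figure D4:**
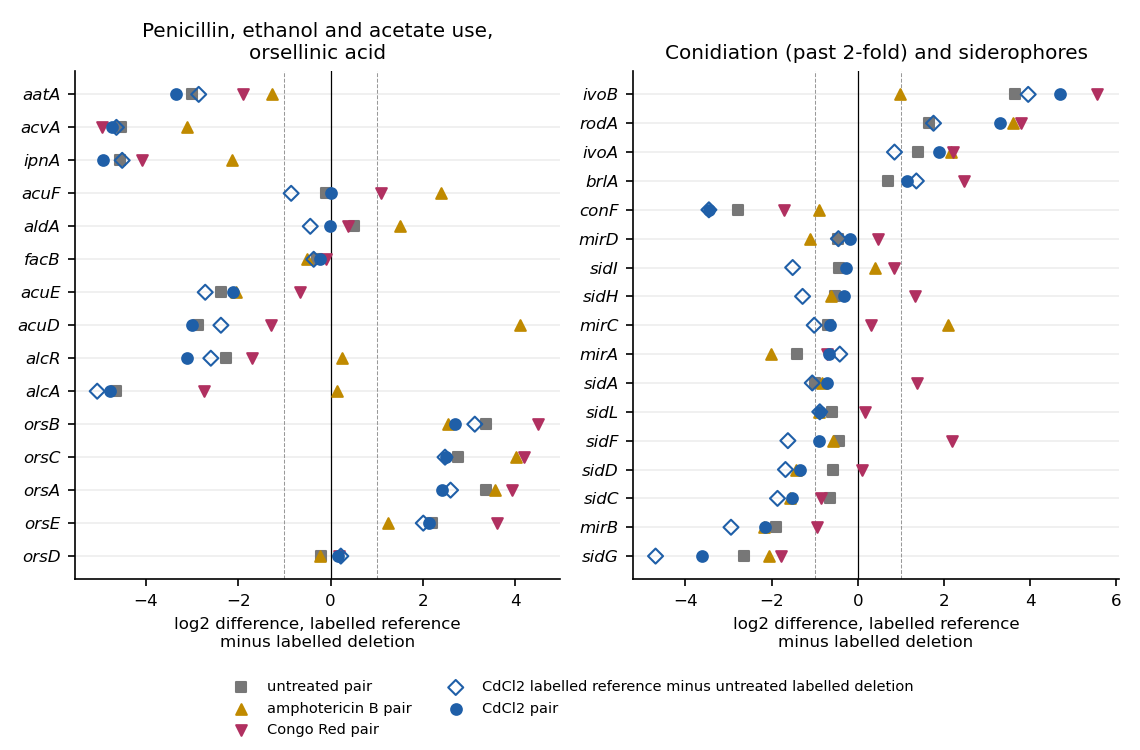
Differences (log2, labelled reference minus labelled deletion, horizontal axis) of metabolic genes on the left and of conidiation genes past 2-fold and siderophore genes on the right, for the 4 pairs of arrays and the exchanged comparison (open diamonds). The cadmium values (filled circles) of the penicillin genes lay between -4.93 and -3.35, those of orsA, orsB, orsC and orsE between 2.13 and 2.69, and those of the 12 siderophore genes between -3.62 and -0.18; dashed lines mark 2-fold. Differences are as measured, acvA and others with 1 array below background included, and a pair with both arrays below background has no point.

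Genes of conidiophores and conidia, the asexual spores, gave the highest value among genes with a symbol in the RefSeq table and a signal above background on both arrays. The level of ivoB, which makes the brown pigment of conidiophores, was 2.35 and -2.34 on the CdCl2 arrays, a difference of 4.70 (SE 0.06) or 25.9-fold. Its levels of 2.05, -1.26 and 2.90 on the untreated, amphotericin B and Congo Red arrays labelled reference stood against -1.60, -2.24 and -2.64 on those labelled deletion. All 4 pairs thus had the same order for ivoB. The hydrophobin rodA, which makes the spore surface water-repellent, had levels of 1.14 and -2.15, and its difference was 3.29 (SE 0.03). Since the untreated array labelled deletion held more rodA signal, at -0.61, the exchanged comparison gave 1.76. For ivoB the exchanged comparison gave 3.96. Its partner ivoA was at 1.88 (0.85 exchanged), and brlA, the activator of conidiophore development, at 1.15 (1.36 exchanged).

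The later regulators of conidiation were not higher. Both abaA and wetA were above background on the array labelled deletion alone and at least 1.18-fold and 1.29-fold lower on the other. The pigment genes pksP and yA were at -0.83 and -0.39, and the conidium-enriched conF was at -3.45 (SE 0.06) and -3.46 exchanged, with -2.77, -0.91 and -1.70 in the untreated, amphotericin B and Congo Red pairs. Of 18 genes tested 4 were at least 2-fold higher and 1 lower, beside 8.67% and 10.5% of all genes, and the median was -0.42. Over 11 markers of conidiophores and conidia the summed signal, in units of the 75th percentile, was 7.89 on the CdCl2 array labelled reference and 2.69 on the one labelled deletion, with 8 and 10 markers above background. On all 4 arrays labelled reference it lay between 5.04 and 11.6, and on those labelled deletion between 2.15 and 3.25. The sum over ivoB and rodA went the same way, at 7.32 on the CdCl2 array labelled reference and 0.423 on the one labelled deletion, and the sum over the other 9 markers the opposite way, at 0.570 and 2.27. Over these 9 the arrays labelled reference lay between 0.570 and 1.38, below those labelled deletion at 1.76 to 2.27. The labels name mycelium, and the part of these cells in other differences was not tested. In pooled RNA, fewer cells of a type and less RNA per cell cannot be told apart.

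Of 9 genes of sexual development and the velvet family that were tested, 3 were at least 2-fold lower and none higher. Among all genes tested, 10.5% were lower and 8.67% higher. The list median was 0.07, with 5 of the 9 above 0, and the highest value was nsdD at 0.96. The zinc finger factor nosA was at -1.68, the early sexual gene esdC at -1.22 and the velvet family member velC at -1.19, while veA, velB and laeA were at 0.48, 0.42 and 0.11. The exchanged comparison gave -2.25, -2.29 and -1.95 for nosA, esdC and velC. For the same genes the untreated pair gave -1.71, -1.11 and -0.89, and the Congo Red pair -0.24, -0.17 and -0.37. In the amphotericin B pair nosA was at -1.71, but esdC was at 1.15, the opposite sign. The opsin nopA had levels of 1.76 and 4.32, a difference of -2.56 (SE 0.04) and -2.54 exchanged, with -2.66, -1.56 and -1.29 in the untreated, amphotericin B and Congo Red pairs. The receptor gprD, a G-protein-coupled receptor that restrains sexual development, had levels of -0.88 and -3.53 and a difference of 2.65 (SE 0.08) and 2.49 exchanged, with 1.69, 1.49 and 1.79 in those pairs.

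The cell wall and the secreted peptidases gave a few large values. The alpha-glucan synthase ags2 was at 3.81 (SE 0.04), with levels of 0.35 and -3.46, and it was at 3.67 exchanged. It was at 3.54 in the untreated and 5.17 in the Congo Red pair and below background on both amphotericin B arrays, while the other 4 cell wall genes lay between -0.87 and -0.49. The dipeptidyl peptidases dppIV and dppV, secreted enzymes that trim peptides, were at -3.56 (SE 0.02) and -2.0 (SE 0.06), with -4.16 and -2.45 exchanged. In the untreated, amphotericin B and Congo Red pairs dppIV was at -3.48, -0.59 and -2.53, and dppV at -2.57, -1.50 and -1.90. The chitinase chiB and the protease prtA were at 0.83 and -0.95. The gene listed as ish1, named after a stress protein of fission yeast, was at -2.55 (SE 0.04) and -2.22 exchanged, with -2.61, -0.10 and -1.85 in the untreated, amphotericin B and Congo Red pairs.

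Members of the amino acid breakdown lists lay on both sides of 0. In tyrosine breakdown hmgX was at 2.32 (2.18 exchanged) and hpdA at 1.69, but hmgA at 0.21, maiA at -0.86 and fahA at -1.20 (-0.79 exchanged). All 5 were far higher in the amphotericin B pair, between 2.11 and 4.74. The gene listed as aah1, an adenine deaminase in yeast and the single gene of purine breakdown examined, had levels of -1.06 and -4.15 under cadmium and 4.49 and -1.36 under amphotericin B, giving differences of 3.09 (SE 0.06) and 5.86, with 2.61 in the exchanged comparison. The proline permease prnB was at 1.49 and the proline dehydrogenase prnD at 1.37, while the GABA transaminase gatA was at -1.27, and the exchanged comparison gave 2.19, 1.27 and -2.21. Of 7 nitrogen assimilation genes, gdhA, for glutamate dehydrogenase, alone passed 2-fold, at 1.08, and it lay at -0.27 in the exchanged comparison.

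In the growth and organelle lists few genes passed 2-fold. Ribosome biogenesis had 0 of 15 past 2-fold, with utp10 the largest at 0.82, and a median of 0.22, but the exchanged comparison gave 0.86 with 4 of 15 higher. The untreated pair, which shares the untreated array labelled deletion with the exchanged comparison, gave 0.84. In the amphotericin B and Congo Red pairs the medians of this list were -1.03 and 0.24. Mitochondrial import and peroxisome genes had medians of 0.17 and -0.23 with none past 2-fold, and their largest were tom70 at 0.50 and pex20 at -0.56. In the autophagy list atg11 was at 1.24 (0.41 exchanged), and of 15 sterol genes erg27 alone passed 2-fold, at 1.23 (0.71 exchanged). The plot of all lists shows that most of them centred near 0 with single genes far out.

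**Figure D5:**
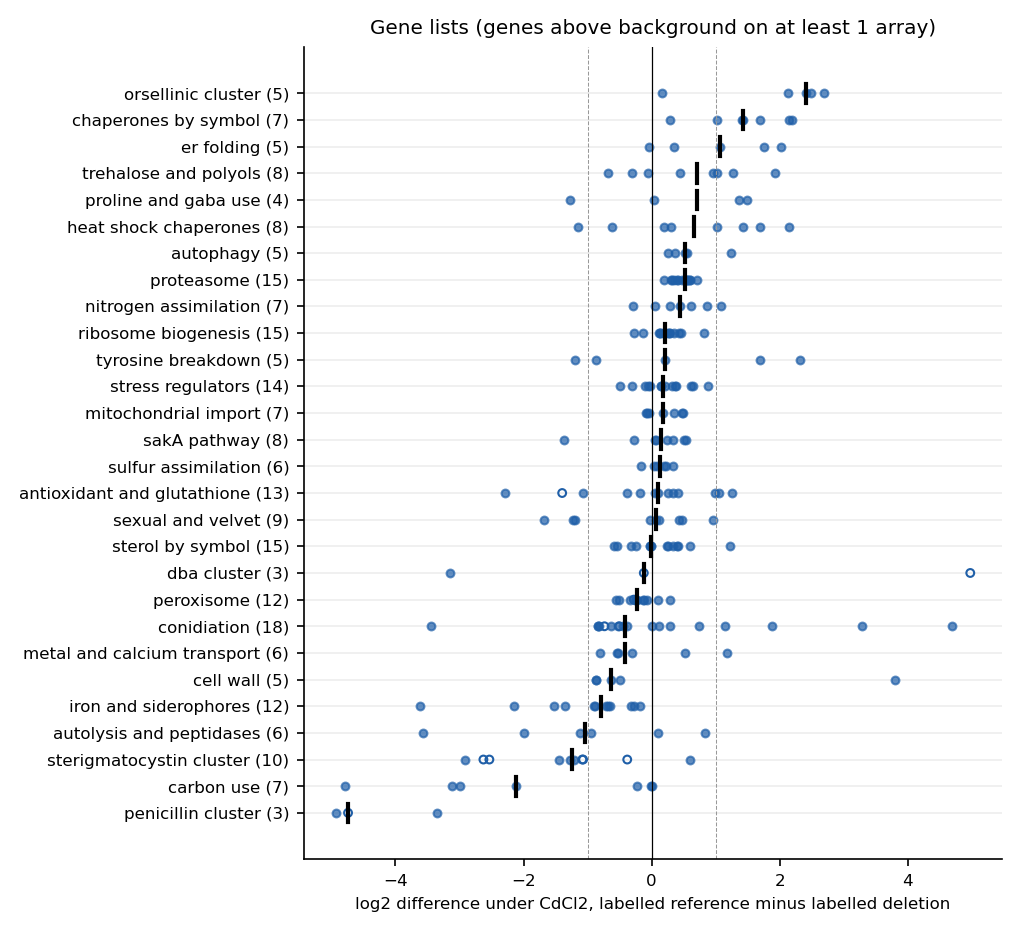
Cadmium differences (log2, labelled reference minus labelled deletion, horizontal axis) of the genes of 28 lists, with the number tested in brackets; filled points were above background on both arrays, open points on 1, and black bars are list medians. Medians of the measured differences ran from -4.74 for the penicillin cluster to 2.41 for the orsellinic cluster, and those of the chaperones by symbol and the proteasome were 1.43 and 0.52; dashed lines mark 2-fold.

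Apart from atfA, the largest differences belonged to genes without a symbol. AN3520 had levels of -6.15 and 3.61, a difference of -9.75 (SE 0.10), and on the other arrays labelled reference it lay between -4.50 and -2.60 against 2.68 to 3.51 on those labelled deletion. AN9180 was at -8.67 (SE 0.07) and AN3703 at -6.59 (SE 0.06), and both were lower in all 4 pairs. In the exchanged comparison AN3520, AN9180 and AN3703 were at -9.66, -9.05 and -6.60. AN5056 was at -7.15 and varied more by condition, with levels of -8.12 untreated, 3.85 under amphotericin B, -3.33 under CdCl2 and -5.84 under Congo Red on the arrays labelled reference. AN8959 and AN0693, below background on the array labelled reference, were at least 117-fold and 97-fold lower, and at least 94.2-fold and 59.7-fold in the exchanged comparison, where AN5056 was at -6.96. Toward the other side, AN11864, AN0656, AN6401 and AN7937 were at 5.76, 5.75, 5.25 and 4.75, and AN1756, AN8890 and AN8611 at least 54.2-fold, 35.7-fold and 34.6-fold higher. With the array exchanged, AN11864, AN6401 and AN7937 were at 5.21, 4.43 and 4.79, AN1756 was at least 27.7-fold higher, and AN8890 and AN8611 were at 3.74 and 3.51.

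A pair of these genes stood out on the CdCl2 array labelled reference. AN0656 had a level of -0.02 there and -4.99 on the untreated array of the same label, and it lay between -6.31 and -3.76 on the 4 arrays labelled deletion. Its level was higher, at 3.44, on the amphotericin B array labelled reference. AN8608 had a level of -1.79 on the CdCl2 array labelled reference and between -7.36 and -5.91 on the other 7. It was below background on the CdCl2 array labelled deletion, so it was at least 47.6-fold higher. In the untreated pair it was above background on the array labelled reference alone and at least 1.04-fold higher, in the Congo Red pair on the array labelled deletion alone and at least 1.6-fold lower, and on neither amphotericin B array. In the exchanged comparison AN0656 was at 6.30 and AN8608 at least 26.3-fold higher.

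Several of the lowest and highest genes were chromosomal neighbours in the gene order of the RefSeq table. There were 14 runs of at least 4 adjacent genes all past 2-fold in 1 direction, 10 of them lower with 46 genes and 4 higher with 17. With dim genes at their bound, 8 of the lower and 4 of the higher runs still had at least 4 genes past 2-fold, and 11 runs had every gene past it. In the exchanged comparison all genes of these runs kept their sign, but every gene was past 2-fold in only 8 of the 10 lower runs (42 of 46 genes) and in 1 of the 4 higher runs (13 of 17 genes). The run from AN3520 to AN3517 held AN3519, AN3518 and AN3517, named after their values were seen, which were at least 20.4-fold, 60.0-fold and 16.5-fold lower. In the Congo Red pair AN3520 was at -7.54, and AN3519, AN3518 and AN3517 were at least 25.4-fold, 58.9-fold and 16.6-fold lower. In the amphotericin B pair AN3520 was at least 143-fold lower, but AN3519 and AN3518 were at -0.41 and -0.34 and AN3517 was at least 1.62-fold lower. The run that ended in conF held 4 genes between -4.40 and -1.13. The higher run from AN8612 to AN8608 lay between 1.00 and 5.57, with AN8612 at 0.94 and AN8610 at 0.80 in the exchanged comparison. In the Congo Red pair the first 4 of these genes lay between 1.41 and 5.78.

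The chromosomal neighbours of atfA itself were examined as well. Of the 20 genes to each side, 37 of 40 were tested, with 5 (13.5%) at least 2-fold lower and 3 (8.11%) higher, beside 10.5% and 8.67% of all genes tested. By bound 4 were lower and 3 higher. The nearest neighbours AN2912 and AN2910 were at 0.33 and 0.51. Beyond them AN2922 and AN2923, 11 and 12 genes away on 1 side, were at least 176-fold lower and at -7.76, and AN2894, 16 genes away on the other side, was at least 15.3-fold lower, with AN2923 and AN2894 named after their values were seen. In the exchanged comparison AN2922 and AN2894 were at least 171-fold and 7.61-fold lower and AN2923 was at -7.46. In the Congo Red pair AN2923 was at -6.05, and AN2922 and AN2894 were at least 209-fold and 29.9-fold lower. In the untreated pair AN2922 and AN2923 were at -7.69 and -5.56, and AN2894 was at least 10.5-fold lower. The amphotericin B pair gave -3.05, -4.29 and 0.13 for AN2922, AN2923 and AN2894.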

How the data were processed

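The submitters' processing notes name Agilent Feature Extraction 12.0.3.1 for the single-colour arrays. Per the file headers, each spot of the deposited scanner files has a processed signal, an intensity that the software had corrected for background but not scaled between arrays, as well as a median signal and background. A value table of log2 values that the authors deposited served as an alternative, and how its values were normalized and centred is unknown. Its direction was read from correlations with the scanner signals.

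Control spots and spots with a feature outlier flag (1.46% to 1.90% of an array) were left out, log2 processed signals of a probe were averaged, and the log2 of the array's 75th percentile was subtracted. The median SD between spots was 0.0785 and 0.0817 on the CdCl2 arrays. A gene counted as above background when most of its spots were, and was tested when it was above background on at least 1 of the 2 arrays. Lower bounds set the dim array at the higher of the probe's own signal and the lowest level above background on that array. Through their locus tags, 9697 of 10550 probes matched the RefSeq gene table (assembly ASM1142v1), which gave 776 of them a symbol, in part that of an orthologue. Coordinates were not used, as the files name no build. The slide was read from the barcode recorded in the scanner headers. With 1 array for each label no test was run, and precision is limited by that number.

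The comparison, the 28 gene lists and the rule for named genes were chosen with earlier results of these data known. Named were the 10 highest and 10 lowest genes with a symbol and the 5 highest and lowest of all, above background on both arrays with the same sign under quantile and normexp values, the 4 largest bounds each way, atfA, pyroA and pyrG, and up to 4 members past 2-fold of each list, or else its largest; other list members are named to describe their list. Another 10 list entries were dropped because the table gave the name to another gene. Alternatives were quantile normalization and normexp (offset 50, limma 3.58.1 in R 4.3.3), median centring, other filters, all spots, the value table and the exchanged array; normexp used the median signal, since the files hold no mean signal. The code was tested on simulated data.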

Additional observations from a re-analysis of the deposited data

Results flagged for a closer look

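Of the named genes and list members above background on both CdCl2 arrays and past 2-fold, 6 had the opposite sign in the untreated pair. The difference between the pairs was not tested, since each label has 1 array. They were hsp70 at 1.43 against -0.29 untreated, hsp88 at 1.41 against -0.05, hsp90 at 1.69 against -0.10, fes1 at 2.14 against -0.77, sti1 at 2.19 against -0.12, and gdhA at 1.08 against -0.26. With the 2 arrays labelled deletion exchanged, hsp70 stood at 1.15 against -0.01, hsp88 at 1.20 against 0.16, hsp90 at 1.84 against -0.25, fes1 at 1.64 against -0.27 and sti1 at 1.48 against 0.58, while gdhA stood at -0.27 against 1.09.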

How the results depend on the processing

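The counts were 732 higher, 887 lower and 605 shared in direction with the Congo Red pair. Normexp background correction gave 343, 410 and 285, and the value table columns matched to the CdCl2 scanner arrays 442, 500 and 367. With no filter on dim probes 1359 genes were higher, and higher genes made up 59.3% of the calls against 45.2%. The CdCl2 columns of the value table shared 364 genes with the Congo Red pair. Of 89 named genes past 2-fold, 88 kept their direction in the exchanged comparison and 81 stayed past 2-fold; normexp left 68 past 2-fold while 71 were past it in the CdCl2 columns of the value table. The gene gdhA reversed, to -0.27 in the exchanged comparison and -0.41 in the value table. Setting dim genes at their bound was chosen after seeing the data, as were the matched columns. Leaving out an array was not possible with 1 for each label. No paired analysis was possible because the cadmium comparison has 1 array for each strain label; a fit of strain label with condition as a block would test the strain label over all 4 conditions, not under cadmium, and was not run. The cause of these shifts was not tested. Genes near background have only bounds.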
